A study of Mus musculus with 4 samples.

Results

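The joining (J) and diversity (D) gene segments of the immunoglobulin and T cell receptor loci form the subject here. They were taken from the deposited promoter table as the rows whose gene symbol begins with Ighj, Ighd, Igkj, Iglj, Traj, Trbj, Trbd, Trgj, Trdj or Trdd followed by a digit. The rule itself uses no measured values, but it was chosen with earlier results of these data known. The rule found 86 of the 26354 rows. There were 59 Traj segments of the T cell receptor alpha locus (50 annotated as genes and 9 as pseudogenes), 14 Trbj, 2 Trdj and 1 Trgj segment of the other T cell receptor loci, 5 Igkj segments of the kappa light chain, and 4 Ighj segments and 1 D segment (Ighd1-1) of the immunoglobulin heavy chain. Segments of the Iglj, Trbd and Trdd families were not analysed here.

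H3K9me2, dimethylation of lysine 9 of histone H3, was measured by ChIP-seq in the media of the aorta from male C57Bl/6J mice. The animals and tissue were untreated, the adventitia and endothelium had been stripped off by hand, and the tissue was formaldehyde-fixed without culture, so the medial layer stands for smooth muscle cells as a dissected tissue and not as sorted cells. Experiments v102 and v134 each gave 1 ChIP library and 1 input library, the input being the same kind of chromatin sequenced without immunoprecipitation. Ages and the number of animals behind each experiment are not given in the sources used here, so a p-value covers the spread between these 4 libraries and may not cover the spread between animals. All values are reads within 1 kb either side of a gene's start. In such tissue, a smaller share of cells carrying the mark and less mark in each cell cannot be told apart.

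A complete antigen receptor gene does not exist in the germline. In developing lymphocytes the RAG1 and RAG2 recombinase joins a V segment, in some loci a D segment, and a J segment, cutting at recombination signals that consist of a heptamer, a spacer of 12 or 23 bases and a nonamer. Cells of other lineages, such as smooth muscle, keep the V, D and J segments apart in their germline order. H3K9me2 is a mark of transcriptionally silent chromatin that is deposited mainly by the methyltransferases EHMT2 and EHMT1, and it often covers broad domains of lineage-specific genes in cells that do not use them. A J segment has no V-type promoter of its own, so the window around its start is a promoter window in name only. At the alpha locus, germline transcription through the J array begins upstream of Traj61, and the transcriptional enhancer lies beyond the constant gene Trac.

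The segments are short and densely packed, and their windows are not independent. All 86 symbols matched 1 gene each in the GENCODE annotation of GRCm38, and 80 had the same start in RefSeq. The largest disagreement was 52 bases, at Ighj2. The Traj array spans 63.8 kb of chromosome 14, with a median of 962 bases between neighbouring starts. Each window is 2 kb wide, so 82 of the 86 windows overlap at least 1 other member's window and count the same reads, with up to 6 overlapping members. Taking windows from the lowest start upwards left 33 that do not overlap one another.

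The sequences of 7 segments are printed. Igkj1, Traj35 and, for the side after the segment only, Ighd1-1 are shown for their full recombination signals. Ighd1-1, Ighj1, Traj41, Traj50 and Traj3 are shown because their windows passed the test below. Ighj2, which also passed, shares most of its window with Ighj1 and is not printed. Each begins 60 bases before the segment and ends with the segment. Ighd1-1 also includes the 45 bases that follow it. They were read from the GRCm38.p6 genome of RefSeq on the segment's own strand, 5′ to 3′. Capitals mark the heptamer CACTGTG before a J segment, the heptamer CACAGTG after the D segment, and 9 bases at the nonamer's place, 12 or 23 bases from the heptamer, where they hold the nonamer core (TTTTTG before a J segment, its reverse complement after the D segment). Igkj1 (chr6:70722502-70722599, plus strand) and Traj35 (chr14:54183714-54183838, plus strand) show the arrangement with a spacer of 23 and of 12 bases. Ighd1-1 (chr12:113482125-113482252, minus strand), Ighj1 (chr12:113429781-113429893, minus strand) and Traj41 (chr14:54176211-54176325, plus strand) lie in windows above input. Traj50 (chr14:54167530-54167652, plus strand) and Traj3 (chr14:54217232-54217357, plus strand) lie in windows below input. Traj41 has the heptamer without the core, Traj50 has the core without the exact heptamer (left in lower case), and Ighj1 and Traj3 have neither in the letters searched. Before its segment, Ighd1-1 also has the core without the exact heptamer, left in lower case.
Igkj1: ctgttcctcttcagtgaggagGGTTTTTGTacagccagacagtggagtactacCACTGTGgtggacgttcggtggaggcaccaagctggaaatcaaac
Traj35: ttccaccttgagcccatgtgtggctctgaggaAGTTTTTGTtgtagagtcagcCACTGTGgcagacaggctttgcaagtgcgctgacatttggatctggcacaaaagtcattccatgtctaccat
Ighd1-1: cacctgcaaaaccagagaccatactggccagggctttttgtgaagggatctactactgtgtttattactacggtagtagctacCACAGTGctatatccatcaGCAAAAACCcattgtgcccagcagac
Ighj1: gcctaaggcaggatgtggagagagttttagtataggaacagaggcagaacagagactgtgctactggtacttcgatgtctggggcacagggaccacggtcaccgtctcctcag
Traj41: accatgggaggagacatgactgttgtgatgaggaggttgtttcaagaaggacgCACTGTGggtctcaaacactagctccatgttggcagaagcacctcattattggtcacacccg
Traj50: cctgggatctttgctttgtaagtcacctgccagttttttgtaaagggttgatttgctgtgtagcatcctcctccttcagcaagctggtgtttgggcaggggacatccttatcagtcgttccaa
Traj3: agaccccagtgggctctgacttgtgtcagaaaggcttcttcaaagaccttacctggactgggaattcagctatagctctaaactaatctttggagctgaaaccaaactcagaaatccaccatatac

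The heptamer CACTGTG was found on the segment's strand within 60 bases before the start of 20 of the 86 segments (23.3%), and in 19 of these its last base lay directly before the segment's first base. Among 22243 other rows with a position it was found in 0.629%. The core TTTTTG was found before 33 segments (38.4%), compared with 1.29% of the other rows, and both motifs before 10 segments (11.6%), compared with 0 other rows. The stretch of 9 bases that holds the core ended 12 bases before the heptamer in 7 Traj segments and 23 bases before it in Igkj1, Igkj4 and Igkj5. On either strand, the heptamer was found at 31.4% of the segments and 1.14% of the other rows, and the core at 39.5% and 2.48%. The letters GTG, the end of the heptamer, directly preceded 72 segments (83.7%), compared with 0.994% of the other rows. The annotated starts at the centres of these windows thus mostly adjoin recombination signals. Segments with the full heptamer had a median percentile of the H3K9me2/input ratio of 64.9 and those without it 58.7, a difference that was not tested because the windows share reads.

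Over the table, the ChIP libraries hold 162233 reads in v102 and 229605 in v134, and the input libraries 619100 and 1084349. At the segments there were 1 to 16 ChIP reads in v102 (median 5.0) and 0 to 24 in v134 (median 8.0), against 11 to 37 and 28 to 71 input reads. A single window therefore has low precision. After 1 read was added, ChIP and input reads were scaled to their library totals over the table, and the log2 of their quotient (the log2 ratio) was averaged over both experiments and ranked among all rows as a percentile. Log2 fold changes are those of edgeR's quasi-likelihood test of ChIP against input. The median fold change over all rows was -0.35 on the log2 scale with TMM normalization and -0.50 with library totals, so fold changes are best read against that level.

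H3K9me2 over the J and D segments was close to that of the typical promoter window, and few single windows stood apart from input. The median percentile of the 86 windows was 60.2, with a range from 14.9 (Traj61) to 85.7 (Ighd1-1), and 65 of the 86 lay above the median of all rows. The median was 58.1 in v102 and 56.9 in v134. Only 8 windows (9.30%) were in the top quartile, which holds 25% of all rows, and 3 were in the bottom quartile. In single experiments 10 (v102) and 14 (v134) windows were in the top quartile. Among rows with 20 or more reads in both inputs, 20 of the 59 remaining segments were in the top quartile of those rows, a share above and no longer below that of all such rows. Traj41 was the single member that reached the top quartile in v102 and in v134, as 17.8% of all rows did. On the scale of the deposited ratio, summed ChIP reads over summed input reads without scaling, the segments had a median of 0.215 (0.0649 to 0.571), compared with 0.162 over all rows and 0.343 at the 75th percentile.

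By the edgeR test, adjusted by Benjamini-Hochberg over all rows, 4 segments were above input, namely Ighd1-1, Ighj1, Ighj2 and Traj41, and 2 were below it, Traj50 and Traj3. Of all rows tested, 18.6% were above and 17.0% below, so both shares were smaller among the segments (4.65% and 2.33%). The median log2 fold change of the segments was 0.04, which is 0.40 higher than the median of all rows. Calls above input made up 52.2% of all calls with TMM normalization and 43.1% with library totals, under which 1 segment (Ighd1-1) was above and 3 (Traj50, Traj49 and Traj3) were below, beside 16.3% and 21.5% of all rows. With the experiment as a replicate block, 2 segments were above (Ighj1 and Ighd1-1) and 0 below, with 2 below at an unadjusted p under 0.05 (15.8% and 8.3% of all rows were called). Among rows with 20 or more reads in both inputs, 8 of 59 segments were above and 0 below, with 2 below at an unadjusted p under 0.05 (17.5% and 12% of those rows). Without mitochondrial rows the same 4 and 2 segments were called (18.9% and 16.2% of rows), and with autosomal rows 5 were above, Traj44 added, and 0 below, with 2 below at an unadjusted p under 0.05 (19.6% and 12.8%). DESeq2 called 0 in either direction, with 1 segment at an unadjusted p under 0.05, while 11.6% of all rows were above and 0.102% below. Its adjusted p was undefined for 47 of the 86 segments.

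Reads summed over windows that do not overlap gave another view of the same level. The 33 windows held 443 ChIP and 2093 input reads, a ratio 0.829 times that of all other non-mitochondrial promoters (95% Wilson interval 0.749 to 0.919, counting error only). It was 0.892 in v102 and 0.787 in v134. This summed ratio lies below the promoters' summed ratio while the median percentile lies above 50, since a sum over promoters is weighted by those with many ChIP reads and a median is not. Without the heavy chain windows, a choice made after the values were seen, the ratio was 0.782 (0.702 to 0.871).

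The heavy chain held the window with the highest ratio, Ighd1-1, and 3 of the 4 windows above input. By mean log2 ratio Traj41 ranked above all 4 Ighj windows, and Igkj5 above Ighj3 and Ighj4. In v102 the median percentile of Ighj (60.2) was below those of Igkj (79.6) and Trdj (75.6), and in v134 (83.9) it was above theirs (55.2 and 49.6). Ighd1-1 (ENSMUSG00000076630.1, chr12:113482170-113482192) is a D segment 52.4 kb from Ighj1. It had 9 and 19 ChIP reads in v102 and v134, against 21 and 28 input reads. Its log2 ratios were 0.79 and 1.70 (mean 1.25 ± 0.64, SD, n = 2), at percentile 74.1 in v102 and 92.6 in v134. It was thus in the top quartile in v134 only. The log2 fold change was 1.42 (SE 0.44, adjusted p = 0.00604 by edgeR). Its window overlaps no other member. Across the alternatives of the test the adjusted p ranged from 0.000244 to 0.0853, and it passed in all but DESeq2.

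The 4 Ighj segments, which end the variable region exon of the heavy chain, start within 1266 bases of one another and largely share their reads. Ighj1 (ENSMUSG00000076621.1, chr12:113429781-113429833) had 13 and 23 ChIP reads against 37 and 47 input reads, with a log2 fold change of 0.99 (SE 0.38, adjusted p = 0.0312 by edgeR). Ighj2 (ENSMUSG00000076620.2, chr12:113429468-113429567) had 10 and 24 ChIP reads against 32 and 47 input reads, with a log2 fold change of 1.01 (SE 0.39, adjusted p = 0.0324). Their starts are 266 bases apart, so these are not separate observations. Both calls were lost with library totals (adjusted p = 0.0756 for Ighj1 and 0.0775 for Ighj2) and in DESeq2 (0.192 and 0.2), and that of Ighj2 also with the replicate block (0.0529). Ighj3 had 8 and 19 ChIP reads against 30 and 45 input reads, and Ighj4 had 3 and 17 against 21 and 43, and neither passed the test (adjusted p = 0.136 and 0.318). All 4 were higher in v134, with log2 ratios from 0.95 to 1.3, than in v102, where they ranged from -0.53 to 0.49. Of the Ighj windows, only Ighj4 is in the set that does not overlap, and it is the lowest of them by mean log2 ratio. Summed over the non-overlapping windows of Ighj4 and Ighd1-1, the ratio was 1.66 times that of other promoters (1.19 to 2.33), but 2.22 in v134 and 0.936 in v102. In this sum the heavy chain thus lay above other promoters in v134 only, while Ighd1-1 alone was at 1.40 in v102 and 2.97 in v134. None of the 4 Ighj windows or Ighd1-1 differed between experiments beyond its 95% counting interval. For Ighd1-1, v134 minus v102 was 0.91 (interval -0.45 to 2.26).

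The kappa segments differed between experiments in the opposite order. The 5 Igkj segments, which complete the kappa variable exon, start within 1324 bases on chromosome 6 and had median percentile 70.9. They held 10 to 12 ChIP reads in v102 and 7 to 9 in v134, against 20 to 23 and 31 to 50 input reads. Log2 ratios were 1.00 to 1.24 in v102 and -0.26 to 0.56 in v134, with no overlap between the experiments. Over all rows the medians were -0.11 in v102 and -0.38 in v134, and 10499 of the 26354 rows were higher in v134. All 5 Igkj windows overlap one another and largely share their reads, so their values are not separate observations. Among them, only Igkj2 differed beyond its counting interval (v134 minus v102 -1.45, interval -2.88 to -0.01). Igkj5 (ENSMUSG00000076608.2) was the highest, with 12 and 9 ChIP reads against 23 and 31 input reads and a log2 fold change of 0.89 (SE 0.46, adjusted p = 0.118). Igkj1 (ENSMUSG00000076604.1) was the lowest, with 11 and 8 against 21 and 50 and a log2 fold change of 0.39 (SE 0.46, adjusted p = 0.507). No Igkj segment passed the edgeR test or had an unadjusted p under 0.05. Where the table was limited to rows with 20 or more reads in both inputs, Igkj5 passed (adjusted p = 0.0206).

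**Figure D1:**
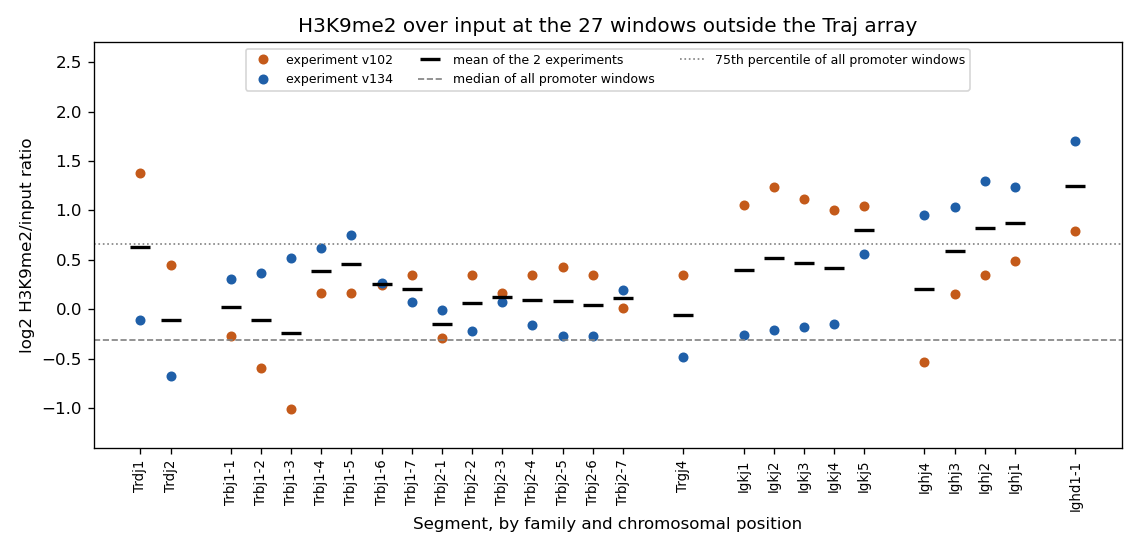
Log2 H3K9me2/input ratio (y axis) of the 27 windows outside the Traj array (x axis, ordered by family and position) in experiments v102 and v134, with their mean as a bar and the median and 75th percentile of all promoter windows as lines. The 5 Igkj windows are higher in v102 and the 4 Ighj windows and Ighd1-1 are higher in v134.

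The 14 Trbj segments were near the middle of the table in both of their clusters. The Trbj1 cluster (7 segments) had percentiles from 52.1 to 70.5, with 2 to 4 ChIP reads in v102 and 9 to 14 in v134. The Trbj2 cluster (7 segments), whose first segment starts 7.11 kb beyond Trbj1-7, had percentiles from 54.8 to 62.0, with 2 to 5 and 5 to 9 ChIP reads. Trbj1-5, the highest, had 4 and 14 ChIP reads against 16 and 41 input reads, and Trbj1-3, the lowest, had 2 and 13 against 22 and 45. Trbj1-3 thus had the lowest ratio of the family in v102 (log2 ratio -1.01) and a ratio above the table's median in v134 (0.52). Adjusted p in the edgeR fit ranged from 0.317 to 0.993 over the family, and 0 of the 14 had an unadjusted p under 0.05. The sign of the fold change of Trbj1-3 depended on the scaling (0.10 with TMM and -0.05 with library totals).

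The delta and gamma segments were few. Trdj1 and Trdj2 lie 13.6 kb apart between the alpha V and J segments, in a stretch that a Trav to Traj joining event deletes. Trdj1 (ENSMUSG00000076870.2) had 14 ChIP reads in v102 and 8 in v134, against 21 and 45 input reads, with log2 ratios of 1.38 and -0.11 and an adjusted p of 0.197. Trdj2 (ENSMUSG00000076871.1) had 4 and 3 against 13 and 29 (adjusted p = 0.741). Trgj4 (ENSMUSG00000098799.1) on chromosome 13 had 7 and 6 against 23 and 45 and a log2 fold change of -0.11 (SE 0.51, adjusted p = 0.877), the sign of which turned among rows with 20 or more reads in both inputs (0.23) and with autosomal rows only (0.06). All 3 lay near or above the median of the table (percentiles 74.4, 55.9 and 57.2), and none was distinguishable from input by edgeR at this depth, with 0 at an unadjusted p under 0.05.

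The Traj array had a median percentile of 56.7 and the widest range of the families, 14.9 to 81.7. This median was the lowest of the families for the mean of both experiments and in v102 (51.4), but in v134 (53.6) those of Trdj (49.6) and Trgj4 (47.4) were lower, as was Trgj4 after removal of the GC trend (10.9, against 32.2 for Traj). Of its 59 windows 1 was above input, Traj41, and 2 were below, Traj50 and Traj3. Over the 25 array windows that do not overlap, the summed ratio was 0.752 times that of other promoters (0.666 to 0.849), with 0.823 in v102 and 0.700 in v134. This interval does not overlap that of Ighj4 and Ighd1-1, the heavy chain windows summed above, but the intervals cover counting error only. In v102 the values were 0.823 for Traj and 0.936 for Ighj4 with Ighd1-1. The difference between the families was not tested. The 9 pseudogene windows had a median percentile of 46.0 and the 50 windows annotated as genes 58.1, with overlapping ranges (14.9 to 74.9 and 16.3 to 81.7).

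**Figure D2:**
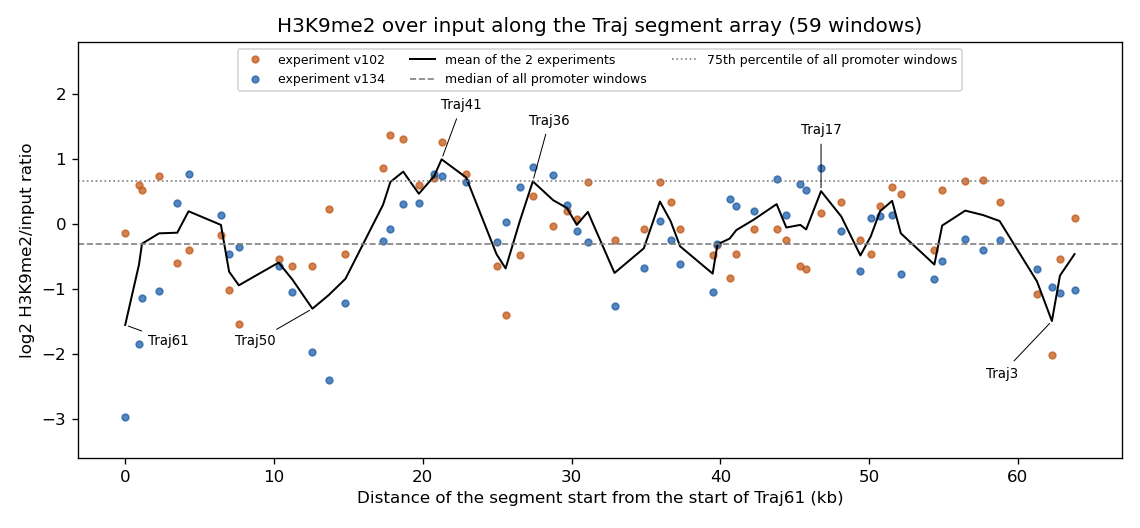
Log2 H3K9me2/input ratio (y axis) of the 59 Traj windows by distance of the segment start from Traj61 (x axis, kb) in experiments v102 and v134, with a line through their means and the median and 75th percentile of all promoter windows. The windows from Traj46 to Traj40 lie above the median in both experiments, and the means of Traj61, Traj50 and Traj3 are the lowest.

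Along the array the ratio was uneven. Traj41 (ENSMUSG00000076889.1, chr14:54176271-54176325), 21.3 kb from the start of Traj61, had 16 ChIP reads in v102 and 10 in v134 against 26 and 30 input reads. Its log2 ratios were 1.26 and 0.74 (mean 1.00 ± 0.37, SD, n = 2), both above the table's 75th percentile, and its log2 fold change was 1.14 (SE 0.43, adjusted p = 0.0298 by edgeR). It lost the call with library totals (adjusted p = 0.063), with the replicate block (0.0663) and in DESeq2 (0.178). Its neighbour Traj42, which starts 498 bases away and shares reads with it, had 11 and 11 ChIP reads against 27 and 32 (adjusted p = 0.141). Traj44 had 16 and 15 against 25 and 60 (adjusted p = 0.0794), and Traj40 had 8 and 10 against 19 and 32 (adjusted p = 0.215). Traj46 to Traj40, 7 windows picked after their values were seen and so described without a test, had percentiles from 66.8 to 81.7 and lay above the median of all rows in both experiments.

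The lowest windows lay on both sides of this stretch. Traj50 (ENSMUSG00000076881.1, chr14:54167590-54167652) had 3 and 2 ChIP reads against 23 and 54 input reads, with a deposited ratio of 0.0649 (0.0270 to 0.156, counting error only). Its log2 ratios of -0.65 and -1.96 were both low, and its log2 fold change was -1.64 (SE 0.65, adjusted p = 0.0366 by edgeR). Traj3 (ENSMUSG00000076925.2, chr14:54217292-54217357), near the Trac end, had 1 and 4 ChIP reads against 30 and 45, with a log2 fold change of -1.64 (SE 0.65, adjusted p = 0.0363). Both calls were lost with the replicate block (adjusted p = 0.0791 and 0.075), among rows with 20 or more reads in both inputs (0.0922 and 0.104) and with autosomal rows only (0.0719 and 0.0716).

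Several windows beside these had similarly few ChIP reads without passing the test. Traj49 had 3 and 1 ChIP reads against 12 and 49 (adjusted p = 0.0728), Traj48 had 3 and 3 against 20 and 43 (adjusted p = 0.166), Traj51 had 3 and 6 against 23 and 67 (adjusted p = 0.123), and Traj53 had 1 and 5 against 21 and 35 (adjusted p = 0.247). At the Trac end, Traj4 had 3 and 4 ChIP reads against 31 and 37 (adjusted p = 0.163). The 7 windows from Traj54 to Traj48, again picked after their values were seen, had percentiles from 20.9 to 41.8, and the 4 from Traj4 to Traj1 from 16.3 to 46.0.

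The ends of the array were Traj61, a pseudogene 18.2 kb beyond Trdj2, and Traj1, a pseudogene 1.71 kb before Trac. Traj61 (ENSMUSG00000090574.1) had 5 ChIP reads in v102 and 0 in v134, against 24 and 36 input reads. Its log2 ratio was -0.13 in v102 and -2.97 in v134, so the experiments differed widely. A count of 0 in v134 allows up to 3 reads, a ratio of 0.0833 to its input, and the edgeR fold change did not pass the test (adjusted p = 0.12). Traj1 (ENSMUSG00000076927.3) had 6 and 5 ChIP reads against 24 and 56 (percentile 46.0, adjusted p = 0.387).

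Reads were also summed in stretches of 10 kb, a length chosen after the values were seen, over the non-overlapping windows of each stretch. The ratio relative to other promoters was lowest at the Trac end (Traj4 and Traj1, 2 windows, 0.477, interval 0.294 to 0.774). It was highest over 4 windows from Traj40 to Traj34 (1.07, 0.809 to 1.42), a sum that leaves out Traj42 and Traj41. The stretch at the Trac end was low in both experiments, 0.536 in v102 and 0.423 in v134, with 9 ChIP reads in each. The sum from Traj40 to Traj34 was 0.923 and 1.18. Over 3 windows from Traj61 to Traj55 the 2 experiments differed most, with 0.921 in v102 and 0.401 in v134.

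Agreement between experiments was weak across the segments. Across the 86 windows the log2 ratios of v102 and v134 had a Spearman rho of 0.10 (Pearson r 0.141). Across the 33 windows that do not overlap, rho was 0.343, compared with 0.689 across all rows. The segments span a narrower range of percentiles (14.9 to 85.7) than all rows, and the part of this range in rho was not tested. Windows within a library share depth and often reads, so these values describe the data and carry no test. The squared difference between experiments was 1.19 times the variance from counting at the segments, 1.06 times at the 33 windows that do not overlap and 0.942 times at all rows. At 7 segments (8.14%) the difference exceeded its 95% counting interval, compared with 5.38% of all rows. All 7 were higher in v102, namely Igkj2, Trdj1, Traj60, Traj59, Traj58, Traj49 and Traj45, of which Traj60 to Traj58 are neighbours that share reads. Most rows leaned the same way. Whatever the size of the difference, 10499 of the 26354 rows and 37 of the 86 segments were higher in v134.

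**Figure D3:**
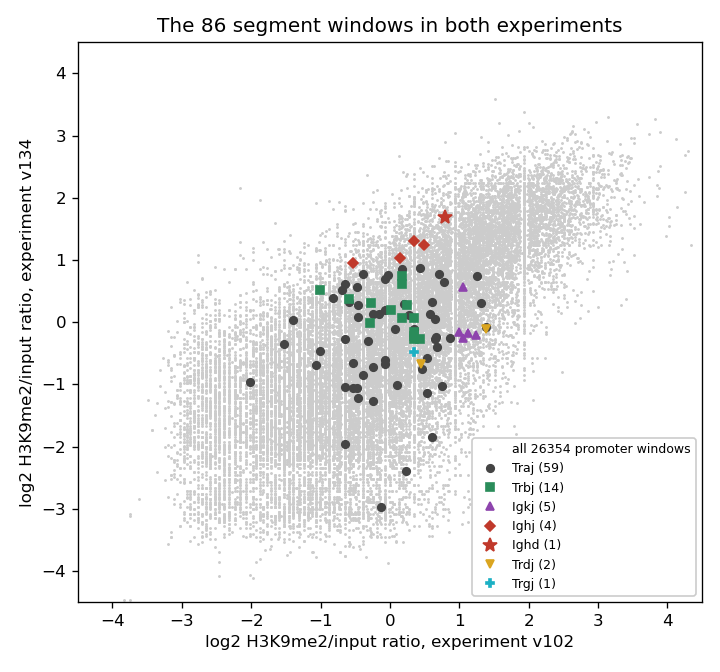
Log2 H3K9me2/input ratio in v102 (x axis) and v134 (y axis), with all 26354 promoter windows as grey points and the 86 segment windows coloured by family. The segments fill the middle of the cloud, with Ighd1-1 and Ighj toward higher v134 values and Igkj toward higher v102 values.

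Base composition moved with the ratio over the table. Across 22292 rows with a position outside chromosome Y and the mitochondrial genome, the mean log2 ratio had a Spearman rho of -0.549 with the GC content of the window. Across the 86 segments rho was -0.0145, and both are given as descriptions. The segment windows had a median GC content of 45.2% (36.9% to 51.6%), compared with 50.9% over all rows, and a median repeat content of 8.20%, compared with 13.9%. With the GC trend of the other rows removed, percentiles were ranked among those 22292 rows only and not among all 26354. The median percentile of the segments was 60.2 among all rows before and 40.5 after, below the median of the smaller set. Both the removal and the change of set enter this shift. Traj went from 56.7 to 32.2, Igkj from 70.9 to 40.4 and Trgj4 from 57.2 to 10.9. The heavy chain kept high values (Ighj 75.9 and 80.9, Ighd1-1 85.7 and 90.3), and Trbj went from 61.1 to 68.1. The part of GC content in the ratios was not tested beyond this.

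The V segments had higher median percentiles than the J segments of the same loci, though at some loci the order depended on base composition or on the experiment. A V segment has its own promoter before a leader exon. Of 105 V segment windows, 81 were above input and 0 below (1 below at an unadjusted p under 0.05 by edgeR, and 18.6% and 17.0% of all rows), with a median percentile of 94.6, from 31.0 (Trbv5) to 99.8 (Igkv6-13). By locus, the medians were 97.7 for 23 Ighv and 75.9 for Ighj, 95.6 for 40 Igkv and 70.9 for Igkj, 87.9 for 12 Trav and 56.7 for Traj, and 81.2 for 21 Trbv and 61.1 for Trbj. After removal of the GC trend the Ighv, Igkv and Trav medians remained the higher ones (91.5, 81.7 and 80.4, against 80.9, 40.4 and 32.2), while the order turned at the beta locus (53.9 for Trbv and 68.1 for Trbj). At the delta locus the medians were 72.1 for 5 Trdv and 65.2 for Trdj, and 55.8 and 56.6 after GC removal, so the order turned there too. At the gamma locus Trgv2 lay at 75.8 and Trgj4 at 57.2 (56.5 and 10.9 after GC removal), but at 45.8 and 47.4 in v134. V windows had a lower median GC content, 40.4%. The difference between V and J windows was not tested.

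**Figure D4:**
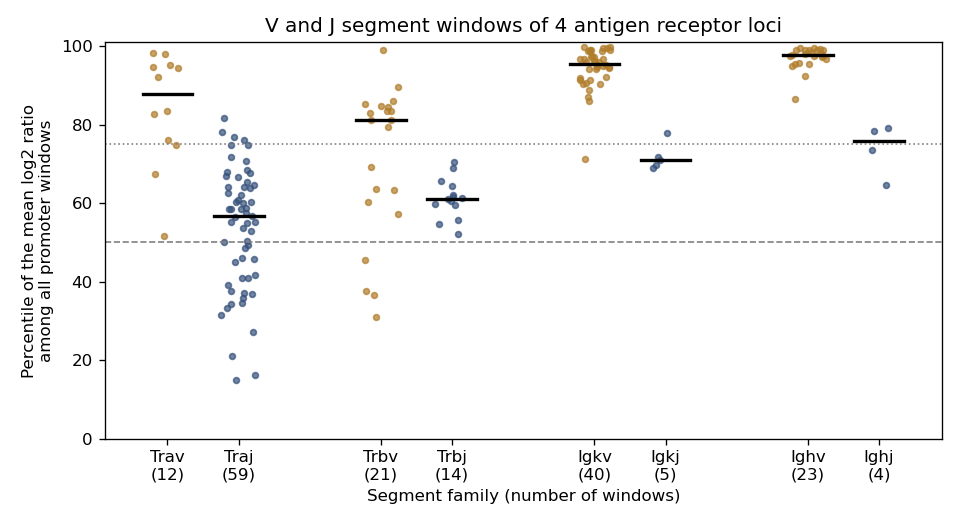
Percentile of the mean log2 ratio among all promoter windows (y axis) for the V and J segment windows of 4 loci (x axis), 1 point per window, with the median as a bar and lines at the 50th and 75th percentile. In each locus the V median lies above the J median.

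The constant region genes, which follow the J segments, also had a higher median percentile than the segments. Trac and Trbc1 nevertheless lay within the range of the J windows of their loci. Most of those in the table are immunoglobulin genes, whereas 59 of the 86 segments are Traj. Of 10 such genes in the table, 8 were above input (80%, beside 18.6% of all rows) and 0 below in the edgeR test (0 below at an unadjusted p under 0.05, beside 17.0% of all rows called below). Their median percentile was 87.8, from 64.1 (Trac) to 95.1 (Ighg1). Ighm, which encodes the IgM constant region and starts 5837 bases beyond Ighj4, had 23 and 19 ChIP reads against 18 and 32 input reads (log2 fold change 2.02, SE 0.40, adjusted p = 6.44e-06). Trac had 6 and 4 against 15 and 29 (log2 fold change 0.14, SE 0.61, adjusted p = 0.872), a percentile of 64.1 within the range of the Traj windows. Igkc, the kappa constant gene, had 7 and 21 against 20 and 42 (log2 fold change 1.11, adjusted p = 0.0292). Igkc was higher in v134 (log2 ratio 1.27, and 0.54 in v102), the opposite order to the Igkj segments. It lay below all Igkj segments in v102 (1.00 to 1.24) and above all of them in v134 (-0.26 to 0.56). Trbc1 lay at percentile 64.9, within the range of the Trbj windows (52.1 to 70.5), and Trbc2 at 86.9, above it.

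Genes that act on the segments were also in the table. Of 14 recombination and end joining genes, 0 were above input (0 also at an unadjusted p under 0.05 by edgeR) and 3 below (21.4%, beside 17.0% of all rows), namely Rag1, Hmgb1 and Lig4, with a median percentile of 35.5. Rag1, a subunit of the recombinase, had 0 and 1 ChIP reads against 20 and 38 input reads. Dntt, which adds bases at the joins, was the highest of the list, with 11 and 9 against 29 and 34 (percentile 71.9). Of 11 partner genes of the receptors, 3 were above (27.3%, beside 18.6% of all rows) and 0 below (0 at an unadjusted p under 0.05), with a median percentile of 60.1. The 3 were Igll1, Vpreb1 and Cd3d, the first 2 being parts of the surrogate light chain and Cd3d part of the T cell receptor complex. Vpreb2 was the lowest of the partner genes (percentile 28.5). Of 19 genes that flank the receptor loci, 3 were above (Trpv6, Top3b and Mettl3) and 6 below, with a median percentile of 26.7. These were 15.8% and 31.6% of the list, beside 18.6% and 17.0% of all rows. Trpv6 was the highest and Brf1 the lowest, with 0 ChIP reads in both experiments. Top3b and the partner gene Vpreb1 start on opposite strands at bases 16870736 and 16870843 of chromosome 16. Their windows thus count largely the same reads, and their 2 calls are not separate observations. Dad1, the housekeeping neighbour 35.3 kb beyond Traj1, had 3 and 2 ChIP reads against 31 and 30 (percentile 26.7, adjusted p = 0.1).

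Markers of the cells in the sample show only the mark at their promoters, since no RNA was measured. For the counts below, 18.6% of all rows were above input and 17.0% below in the edgeR test. Smooth muscle contractile genes had a median percentile of 15.6 (11 genes, 1 above, Smtn, and 5 below, with Myh11 at 0 ChIP reads in both experiments). T cell genes had 74.9 (9 genes, 2 above and 2 below, from Thy1 at 0 ChIP reads to Cd8a at percentile 94.5), and B cell genes 45.6 (7 genes, 1 above, Ms4a1, and 0 below, with 1 below at an unadjusted p under 0.05). Endothelial genes had 53.6 (5 genes, Vwf highest and Kdr lowest), adventitial fibroblast genes 47.2 (4 genes, Dpt highest and Pdgfra lowest) and macrophage genes 42.7 (3 genes, Lyz2 highest and Cd68 lowest). How far lymphocytes or other cells in the tissue contributed to the reads at the segments was not tested.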

How the data were processed

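H3K9me2 ChIP-seq reads from the aortic medial layer were trimmed (Trim Galore 0.4.2, cutadapt 1.9.1), aligned to GRCm38 (Bowtie2 2.2.7, versions per the submitters' processing notes) and counted by the authors within 1 kb of each start site with SeqMonk. The authors deposited raw counts for 4 libraries, their sums over both experiments, and the ratio of the summed ChIP counts to the summed input counts, unscaled for library size. The lowest summed input in the table is 21 reads. Neither the annotation release nor the handling of duplicate reads is given in the sources used here. No sample column was left unused (0).

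The members and gene lists were chosen with earlier results of these data known. Positions came from GENCODE for GRCm38, which matches 1 gene for 22329 of the 26354 symbols, and the authors' start sites may differ. At the 6 pairs of segments that start within 200 bases of each other, the counts of any library differed by at most 11 reads. Counts were tested with edgeR 4.0.16 (R 4.3.3; quasi-likelihood, TMM, all rows kept, Benjamini-Hochberg, threshold 0.05), with 2 ChIP against 2 input libraries, and alternatively with DESeq2 1.42.0. SEs of log2 fold changes were computed as size over the square root of F. The edgeR script was tested on simulated data. Log2 ratios used a pseudocount of 1 read. GC trends were lowess fits (fraction 0.3) to rows that are neither members nor V segments. Wilson intervals at 95% were computed on summed reads and cover counting error only, not the spread between experiments. If copies of 1 fragment were counted as separate reads, these intervals would be too narrow. Table totals are not library depths.

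Each ChIP has its own input, per the study's methods, so the experiment number pairs the libraries. ChIP and input differences between experiments had a correlation of 0.104 across rows. Named with values were the highest and lowest member of each family, the 8 highest and 8 lowest members, the first and last Traj window, and the highest and lowest gene of each list. Other members and genes were named after their values were seen. Alternatives were library totals, DESeq2, the replicate block, 20 or more reads in both inputs, no mitochondrial rows, autosomes only, pseudocounts of 5 and 0.5 reads, summed reads, GC removal, single experiments and windows that do not overlap. Other computations ran in Python 3.11.15 with pandas 2.3.3, statsmodels 0.14.6, numpy 2.4.6 and scipy 1.17.1, and figures in matplotlib 3.10.9.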

Additional observations from a re-analysis of the deposited data

How the results depend on the processing

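Single calls depended on the settings. The 4 segments above input became 1 with library totals, 0 by DESeq2 (1 at an unadjusted p under 0.05), 2 with the replicate block, 8 of 59 among rows with 20 or more reads in both inputs (the stricter minimum), 1 over windows that do not overlap and 1 without the heavy chain windows, the last chosen after seeing the data. The 2 below became 3 with library totals and 0 with DESeq2, with the replicate block, with the stricter minimum and with autosomal rows (0, 2, 2 and 2 at an unadjusted p under 0.05), and 1 over windows that do not overlap. Under the replicate block the calls of Ighj2, Traj41, Traj50 and Traj3 were lost. No edgeR test was made without v102 or without v134, since 1 library per group leaves no residual degrees of freedom. The 8 segments in the top quartile became 10 to 14 in single experiments, 20 of 59 with the stricter minimum and 2 of 33 over windows that do not overlap. The median percentile of 60.2 became 56.9 to 58.1 in single experiments, 59.2 with a pseudocount of 5 reads, 65.8 with the stricter minimum, 59.4 from summed reads and 58.8 over windows that do not overlap. Without the GC trend it was 40.5, ranked among 22292 rows with a position. The median log2 ratio of 0.05 became 0.53 with a pseudocount of 5 reads and -0.24 without the GC trend. The summed ratio of 0.829 became 0.939 with the stricter minimum. The sign turned for Trbj1-3 with library totals (-0.05), and for Trgj4 with the stricter minimum (0.23) and autosomal rows (0.06). The cause of these changes was not tested. Depth limits every window, with at most 24 ChIP reads at a segment.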
